A study of Mus musculus with 2 samples.

Results

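Complement is a cascade of plasma and cell-surface proteins that marks targets for uptake and recruits leukocytes. C1q, built from the A, B and C chains, opens the classical pathway when it binds antibody or damaged cells, and macrophages are a main source of it in the body. C3 is the protein on which all routes of activation converge, properdin stabilises the enzyme that cleaves it, and the fragments C3a and C5a signal through their own receptors on myeloid cells. The genes described here are these 7: C1qa, C1qb and C1qc for the chains of C1q, C3, Cfp for properdin, C3ar1 for the C3a receptor and C5ar1 for the C5a receptor. They were chosen by name, and all 7 were matched by symbol among the 16463 genes of the authors' deposited table. All 7 were among the 11525 genes with at least 20 counts in 1 library.

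Polyadenylated RNA was measured in unstimulated macrophages grown from bone marrow for 5 days, with 1 library for each of 2 genotypes, both labelled C57BL/6J. Both cultures had 10% serum and 10% L929 supernatant. The WT library came from mice carrying Lyz2-Cre, the Cre recombinase under control of a lysozyme gene that myeloid cells express. The TKO library came from mice labelled -/- for mir-106a~363 and for mir-106b~25 and flox/flox for mir-17~92, again with Lyz2-Cre, so the mir-17~92 cluster depends on Cre activity for its removal. The libraries held 10877897 and 10656431 rounded counts. With 1 library per genotype there is no replicate check and no test, the labels do not say how many mice were pooled, and every interval below is a 95% interval for counting error alone.

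The labelled cell type was checked against marker genes. Of 13 macrophage markers 12 were matched and 11 had at least 20 counts in 1 library, with a summed FPKM (fragments scaled for transcript length and library depth) of 3714 in WT and 3956 in TKO, and Timd4 was not matched. Vsig4, a complement receptor of resident macrophages and one of these markers, had 1 count in WT and 4 in TKO. The 13 fibroblast and stroma markers summed to 155.1 and 49.9 FPKM. The 9 dendritic cell markers summed to 99.1 and 120.9, the 8 monocyte markers to 48.7 and 53.1, and the 8 of 9 neutrophil markers matched to 6.25 and 9.40. Most of 2 of these sums came from 1 gene each. Irf8 gave 81.1 and 77.8 FPKM of the dendritic cell sums, and Ccr2 40.4 and 40.2 of the monocyte sums. For hepatocytes, the main source of plasma complement, 1 of 7 markers was matched, with 1 and 2 counts.

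C1q mRNA was abundant and nearly equal in both libraries, C3 was the least abundant gene of the set with the largest ratio, and the anaphylatoxin receptors differed in direction. No member passed the size rule, which asks for a difference of at least 2-fold between TMM-scaled counts, an interval that excludes no difference and at least 20 counts in 1 library. Among all genes tested 4.73% passed this rule, so a count of 0 of 7 is near the background. Of the members 6 had log2 ratios of TKO over WT above 0 and 1 below, with a median of 0.19, while 50.6% of all tested genes lay above 0, with a median of 0.0043 and quartiles of -0.21 and 0.21. With the trend of the ratio with transcript length removed, 4 members lay above 0 and 3 below (C1qb, C1qc and C5ar1), with a median of 0.0082 beside 0.00069 for all tested genes. Absolute log2 ratios under 0.5 were found in 6 of the 7 members and in 83.7% of all tested genes.

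**Figure D1:**
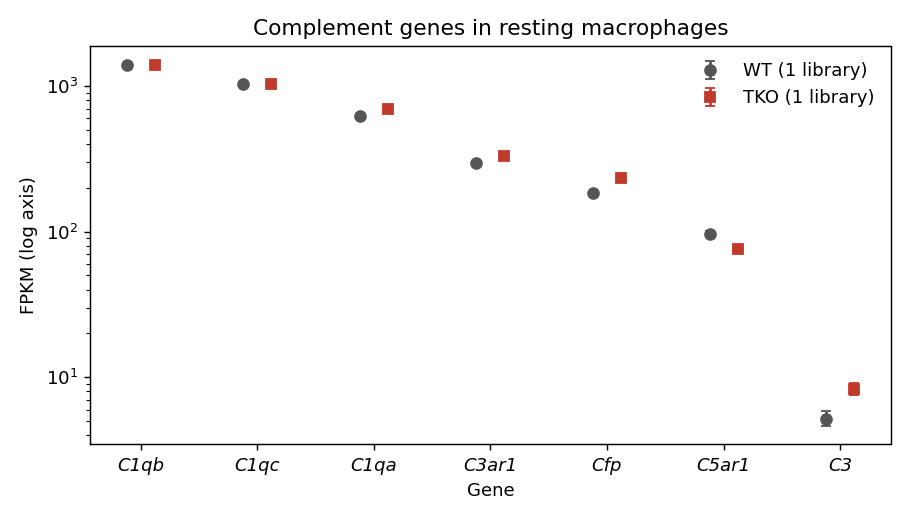
Deposited FPKM of the 7 genes (log axis) in the WT library (circles) and the TKO library (squares), with bars for the 95% Poisson counting interval, which is smaller than most symbols. The order of the genes was the same in both libraries, from C1qb at 1396 FPKM in each to C3 at 5.19 in WT and 8.28 in TKO.

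The genes of the 3 C1q chains lie side by side on the minus strand of chromosome 4 (GRCm38) within 18675 bases. C1qb (Entrez 12260) spans chr4:136880129-136886187, C1qc (Entrez 12262) chr4:136889804-136893065 and C1qa (Entrez 12259) chr4:136895917-136898803, with 3616 bases between the first pair and 2851 between the second. The RefSeq promoter table for GRCm38.p6, which gives 250 bases before to 50 after a gene's start, held 6 of the 7 members. The promoters of C1qb (chr4:136886151-136886450) and C1qc (chr4:136892865-136893164) are shown because these genes had nearly the same ratio, and that of C3 (chr17:57228087-57228386) because its ratio was the largest of the set. All are given on the minus strand, 5′ to 3′. Capitals mark matches on either strand to GAGGAA, a core that PU.1 and related factors bind, and to TGCTGA, one side of a Maf recognition element.

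C1qb: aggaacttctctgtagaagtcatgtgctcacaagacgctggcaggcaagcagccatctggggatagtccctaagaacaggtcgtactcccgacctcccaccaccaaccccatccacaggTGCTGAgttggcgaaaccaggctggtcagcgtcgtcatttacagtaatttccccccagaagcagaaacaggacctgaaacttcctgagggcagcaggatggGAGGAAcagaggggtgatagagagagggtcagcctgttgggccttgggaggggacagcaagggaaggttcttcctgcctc
C1qc: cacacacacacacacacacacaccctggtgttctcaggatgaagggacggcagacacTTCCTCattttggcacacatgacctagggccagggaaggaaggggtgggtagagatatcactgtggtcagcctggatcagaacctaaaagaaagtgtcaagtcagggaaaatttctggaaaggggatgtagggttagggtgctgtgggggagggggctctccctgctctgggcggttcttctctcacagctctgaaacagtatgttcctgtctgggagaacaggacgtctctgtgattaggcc
C3: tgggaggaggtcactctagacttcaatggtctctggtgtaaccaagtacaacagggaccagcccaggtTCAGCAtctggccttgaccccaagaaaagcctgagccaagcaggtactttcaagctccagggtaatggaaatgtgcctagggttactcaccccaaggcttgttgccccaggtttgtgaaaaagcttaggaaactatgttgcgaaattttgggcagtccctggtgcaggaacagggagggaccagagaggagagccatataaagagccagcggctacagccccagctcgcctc

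GAGGAA was found in the promoters of C1qb, C1qc and Cfp, 3 of the 6 members in the table, and in 28.3% of all 32851 promoters of this length. TGCTGA was found in C1qb, C3, C3ar1 and C5ar1, and in 19.5% of all promoters. The AP-1 motif TGACTCA was found in C3ar1 and in 5.20% of all. The interferon-stimulated response element was found in 0 of the 6 and in 3.44% of all. No motif of the 4 was in every member's promoter. The motifs do not overlap one another where they are marked, and a match describes the letters only.

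C1qb, which encodes the B chain, was counted 15837 times in WT and 15525 times in TKO, at 1396.38 and 1395.67 FPKM. It was the most abundant member, ranking 24 of all genes by FPKM in WT and 28 in TKO. Its TMM-scaled log2 ratio was 0.037 (0.0048 to 0.069), and the ratio of the deposited FPKM values was -0.00073 on the log2 scale, so its direction depends on the scaling. C1qc, the C chain gene, had 11728 and 11549 counts and 1033 and 1037 FPKM, with a log2 ratio of 0.043 (0.0062 to 0.081). On this scale both chains were 1.03-fold of their WT level, but both moved below 0, to -0.15 and -0.14, when the trend of the ratio with transcript length was removed.

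C1qa, which encodes the A chain, was counted 7215 times in WT and 7885 times in TKO, at 624.0 and 695.3 FPKM. It was 1.14-fold higher in TKO (1.11 to 1.18), a log2 ratio of 0.19. With the length trend removed the log2 ratio was 0.0082. The comparison of chains within a library needs neither correction, because the deposited lengths are close, at 1082 bases for C1qa, 1062 for C1qb and 1063 for C1qc. Relative to C1qb, C1qa was 1.11-fold higher in TKO than in WT (1.07 to 1.16 from the 4 counts), and relative to C1qc it was 1.11-fold higher as well (1.07 to 1.16). C1qc relative to C1qb was 1.00-fold (0.971 to 1.04), so these chains kept their proportion within counting error and C1qa did not.

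The protein takes up the 3 chains in equal numbers, whereas their transcripts were unequal in both libraries. By FPKM, C1qb made up 45.7% of C1q transcripts in WT and 44.6% in TKO, C1qc 33.8% and 33.2%, and C1qa 20.4% and 22.2%. As a share of the counts of the 3 genes C1qa had 20.7% in WT (exact binomial interval 20.3 to 21.2) and 22.6% in TKO (22.1 to 23.0). The 3 genes together took 0.320% of all counts in WT and 0.328% in TKO. Under TMM scaling, their sum of 34780 and 34959 counts gave a ratio of 1.05-fold (1.04 to 1.07) for C1q as a whole. Their summed FPKM was 3053 in WT and 3128 in TKO. With the length trend removed, C1qa lay at 0.0082 on the log2 scale, C1qb at -0.15 and C1qc at -0.14. The small excess in TKO thus depends on the scaling.

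The TKO mice are labelled as lacking microRNA clusters whose members fall into 4 seed families, so the annotated 3′ UTRs of the 7 genes were searched for their sites. A microRNA pairs with its target mainly through its seed, bases 2 to 8. A mature sequence of each family, from RefSeq (GRCm38.p6), is shown with the seed in capitals.

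miR-17-5p: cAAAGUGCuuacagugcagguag
miR-18a-5p: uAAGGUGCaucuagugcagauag
miR-19a-3p: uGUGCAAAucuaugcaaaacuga
miR-92a-3p: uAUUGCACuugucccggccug

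Of the 7 members 2 held a match to a full seed in the longest annotated 3′ UTR of GENCODE M21. C1qa held 1 site of the miR-17 family, which starts at base 199 of its 237-base 3′ UTR (chr4:136895938-136895966, minus strand), and C3ar1 held 1 site of the miR-25/92 family, which starts at base 284 of 2685 (chr6:122849522-122849550, minus strand). The sites are shown with their flanks and the match in capitals.

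C1qa site: ggtttctttaaGCACTTTctggaataaac
C3ar1 site: gactacaccatGTGCAATgaataactttt

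Among 10763 tested genes with such a 3′ UTR, 14.9% held a miR-17 site and 7.61% a miR-25/92 site, and sites of miR-18 (9.37%) and miR-19 (13.4%) were found in 0 members. C1qa and C3ar1 had log2 ratios of 0.19 and 0.20. The 5 members with no match were C3 at 0.71 (3′ UTR of 43 bases), Cfp at 0.38 (140 bases), C1qc at 0.043 (239 bases), C1qb at 0.037 (160 bases) and C5ar1 at -0.31 (1295 bases). Whether either site bears on these levels was not tested.

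C3 (Entrez 12266, chr17:57203970-57228136, minus strand) had 293 counts in WT and 458 in TKO, and 5.19 and 8.28 FPKM. It was 1.64-fold higher in TKO (1.41 to 1.90), a log2 ratio of 0.71, and 9.03% of all tested genes had a larger absolute ratio. At a threshold of 1.5-fold in place of 2-fold C3 was the 1 member called higher, beside 5.13% of all tested genes. Its ratio was above 0 under every scaling tried, between 0.58 with log2 of FPKM plus 1 and 0.87 with the length trend removed. The counting interval is the widest of the 7 because C3 has the fewest counts. C3 ranked 8183 of all genes by FPKM in WT and 6695 in TKO, and C1qb exceeded it 269-fold in WT and 169-fold in TKO.

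Within 500 kb of C3 the 18 other tested genes had a median log2 ratio of 0.063, from -0.43 for Adgre1, which encodes the macrophage marker F4/80, to 0.93 for Tnfsf14, a cytokine of the TNF family. None of the 18 passed the size rule. For the C1q genes the 6 tested neighbours within 500 kb had a median of -0.16, from -0.43 for Luzp1 to 0.11 for Cdc42, with none past the rule either. Near C3ar1 the 12 tested neighbours had a median of -0.011, and 1 of them, Dppa3, was higher by the rule, at 1.34. Near C5ar1 the 15 had a median of 0.051, and 1 of them, Ehd2, was lower by the rule, at -1.18. Near Cfp the 14 had a median of 0.092, with none past the rule. Among all tested genes 4.73% passed the rule in either direction. These neighbours were listed after the values of the members were known.

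Cfp, the gene of properdin (Entrez 18636, chrX:20925454-20931555, minus strand), had 3255 counts in WT and 4037 in TKO, and 184.0 and 232.7 FPKM. It was 1.30-fold higher in TKO (1.24 to 1.36), a log2 ratio of 0.38, or 0.25 with the length trend removed. It was 35.5-fold more abundant than C3 by FPKM in WT and 28.1-fold in TKO. Properdin acts on the enzyme formed by C3b and factor B, and Cfb, the gene of factor B, was near the count minimum with 21 and 18 counts (0.69 and 0.61 FPKM). Its log2 ratio of -0.16 had an interval of -1.15 to 0.82, so at this depth a level 2-fold lower in TKO lies within counting error, and one 2-fold higher lies outside it.

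The receptor genes for C3a and C5a went opposite ways. C3ar1 (Entrez 12267, chr6:122847138-122856161, minus strand) had 13983 counts in WT and 15401 in TKO, and 296.6 and 333.1 FPKM, which is 1.15-fold higher in TKO (1.13 to 1.18). C5ar1 (Entrez 12273, chr7:16246743-16259540, minus strand) had 2645 and 2045 counts, and 96.99 and 76.52 FPKM, which is 1.24-fold higher in WT (log2 ratio -0.31, -0.39 to -0.22). C3ar1 transcripts outnumbered those of C5ar1 3.06-fold in WT and 4.35-fold in TKO by FPKM, a shift of 1.42-fold in counts (1.34 to 1.52). This shift is not corrected for length, and the deposited lengths differ, at 4299 bases for C3ar1 and 2500 for C5ar1. With the length trend removed their log2 ratios lay further apart, at 0.297 and -0.354. C5ar1 was the 1 member below 0 under TMM scaling, and it stayed between -0.31 and -0.35 under all scalings tried.

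C5ar2, the second receptor for C5a, which signals without G proteins, had 198 and 135 counts, with a log2 ratio of -0.49 (-0.81 to -0.16). It lies outside the rule for naming genes and was chosen after its values were seen. C5ar1 exceeded it 18.5-fold in WT and 20.9-fold in TKO.

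**Figure D2:**
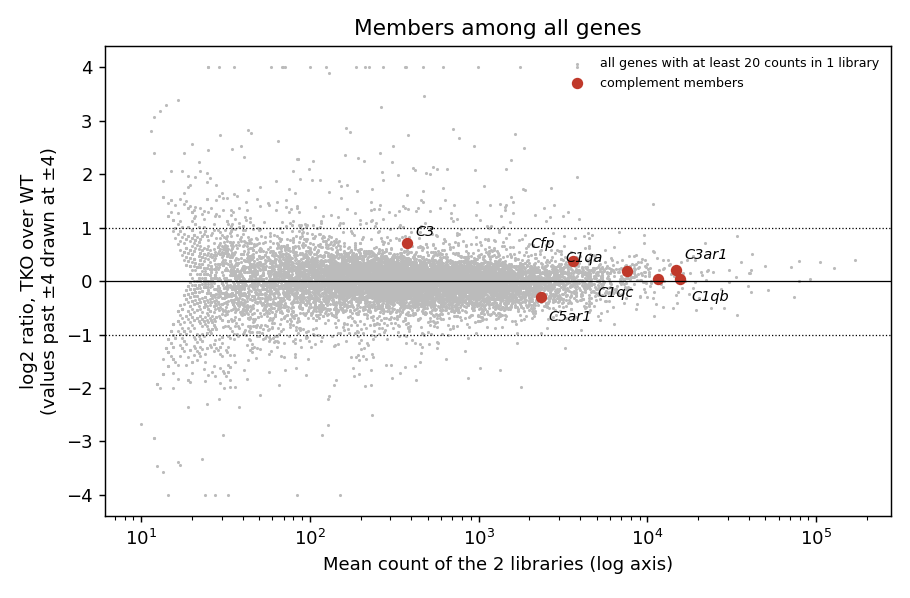
Log2 ratio of TKO over WT (vertical) against the mean count of the 2 libraries (horizontal, log axis) for 11525 genes (grey) and the 7 complement genes (red), with dotted lines at 2-fold. All 7 lie between the dotted lines, C3 highest at 0.71 and C5ar1 lowest at -0.31.

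The order of levels was C1qb, C1qc, C1qa, C3ar1, Cfp, C5ar1 and C3 in both libraries, and no neighbours in this order overlapped in their counting intervals. The step from C5ar1 to C3 was the largest, 18.7-fold in WT and 9.24-fold in TKO. The spread between cultures is not known, so the order holds for these libraries. By distance in log2 FPKM over the 2 libraries, the gene nearest to C1qa was Rps28, to C1qb Rpl23a, to C1qc Rpl10 and to Cfp Rpl39, all genes of cytosolic ribosomal proteins, which are among the most abundant transcripts. The nearest to C3ar1 was Glipr1, to C5ar1 Basp1 and to C3 Pvrl4. This likeness over 2 values describes level and ratio only.

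Outside the 7 members, the soluble components were mostly at low counts, while several receptors and C1q-binding proteins were abundant, and 2 genes passed the size rule. Of 54 further complement genes listed, 38 were matched in the table and 18 had at least 20 counts in 1 library. Among these 18, 1 was higher and 1 lower by the size rule, against 2.43% and 2.30% of all tested genes. Their median log2 ratio was -0.099, or 0.056 with the length trend removed, with 8 above 0 and 10 below. The terminal pathway genes, which form the membrane pore, had 2 of 7 matched, C8g with 8 and 12 counts and C8a with 0 and 2, and none reached 20 counts.

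**Figure D3:**
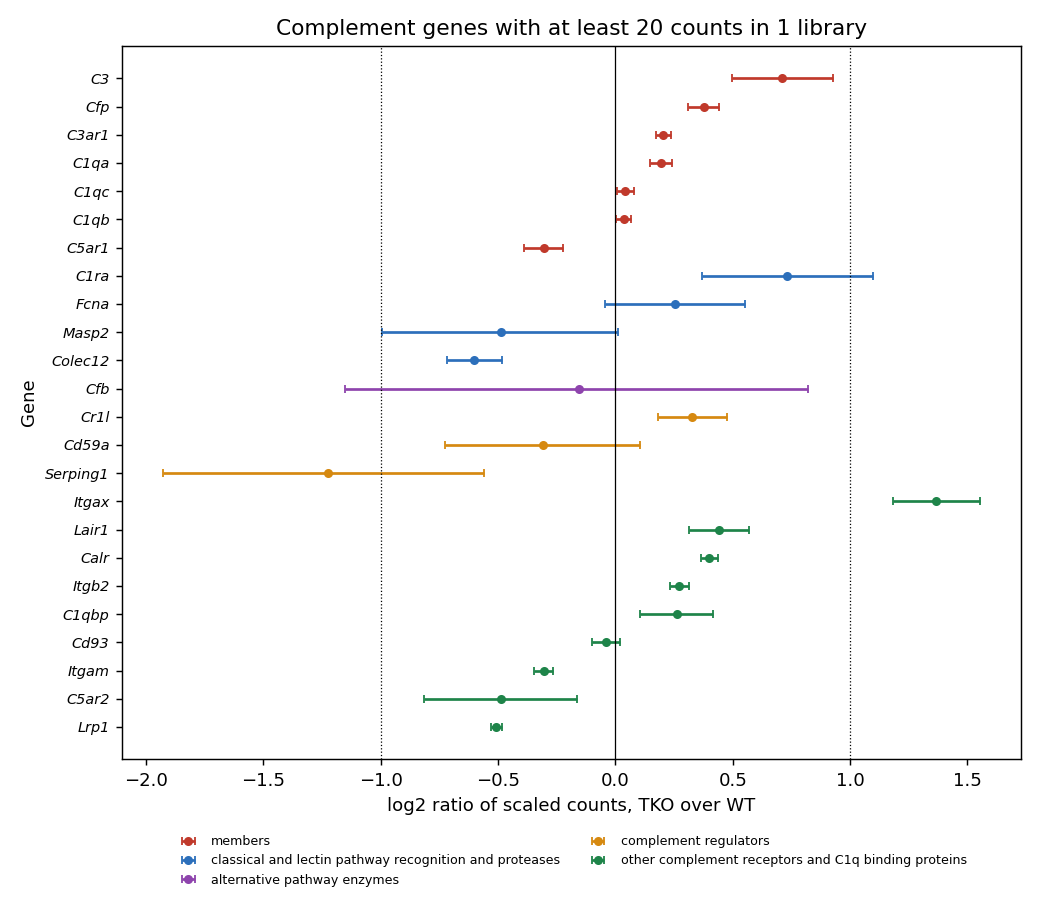
Log2 ratio of TKO over WT, with 95% counting intervals, for the 7 members and 17 of the 18 further complement genes with at least 20 counts in 1 library, coloured by role. Dotted lines mark 2-fold. Itgax lies above 1 at 1.37 and Serping1 below -1 at -1.22.

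Among 16 recognition molecules and proteases of the classical and lectin pathways 11 were matched and 4 had at least 20 counts. C1ra, a protease that C1q carries, had 104 counts in the WT library and 165 in the TKO library, 1.66-fold higher (1.29 to 2.14). By FPKM C1qa exceeded it 181-fold and 125-fold. C1s1, its partner protease, had 4 and 2 counts, and C4b and C2, the next components of the pathway, had 10 and 3 and 7 and 7 counts. C4b and C4a are near-identical copies, so the division of their reads is uncertain. Fcna, a ficolin that starts the lectin pathway, had 178 and 203 counts (log2 ratio 0.26, -0.042 to 0.55), and Masp2, its protease, 85 and 58 (-0.49, -0.99 to 0.013), and both intervals include 0. Colec12, a scavenger receptor of the collectin family, had 1520 and 958 counts, 1.52-fold higher in WT (log2 ratio -0.60, -0.72 to -0.48). At 1.5-fold C1ra joined Itgax as higher and Colec12 joined Serping1 as lower among the 18, beside 5.13% and 5.52% of all tested genes.

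Of 17 regulators 12 were matched and 4 had at least 20 counts. Serping1 (Entrez 12258, chr2:84765387-84775444, minus strand), the inhibitor of the C1 proteases, had 66 counts in WT and 27 in TKO, and 3.31 and 1.38 FPKM. It was lower in TKO by the size rule, with 2.34-fold more in WT (log2 ratio -1.22, -1.93 to -0.56). It did not pass with log2 of FPKM plus 1 or a minimum of 100 counts. Stromal cells also express Serping1. Of the 12 fibroblast and stroma markers with at least 20 counts, all 12 lay below 0 and 9 passed the size rule as lower. Pdgfra, among the 9, reached 20 counts only in WT (35 and 13 counts). Among all tested genes 2.30% passed the size rule as lower. The median log2 ratio of the 12 was -1.65, and none of the 13 was at 0 counts. In bulk RNA fewer cells of a type and less RNA per cell cannot be told apart. The part of stromal cells in the Serping1 ratio was not tested. Cr1l, which encodes Crry, a membrane regulator that limits C3 cleavage in mice, had 703 and 843 counts (log2 ratio 0.33, 0.18 to 0.47). Cd59a, which blocks the membrane pore, had 114 and 88 (-0.31, -0.73 to 0.11).

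Of 12 other receptors and C1q-binding proteins all were matched and 9 had at least 20 counts. The integrin receptors for cleaved C3 share the beta chain gene Itgb2, with 9146 counts in WT and 10558 in TKO (log2 ratio 0.27, 0.23 to 0.31). Their alpha chains differed. Itgam, of complement receptor 3, had 10269 and 7938 counts (-0.31, -0.35 to -0.26), whereas Itgax, of complement receptor 4 (Entrez 16411, chr7:128129547-128150657), had 342 and 843 counts and 7.75 and 19.49 FPKM. Itgax was higher in TKO by the size rule, 2.58-fold (2.27 to 2.93). Of the counts of these alpha chain genes, Itgax took 3.22% in WT (exact binomial interval 2.90 to 3.58) and 9.60% in TKO (8.99 to 10.2). Itgax is also a dendritic cell marker. Of the 6 such markers with at least 20 counts 4 passed the rule as higher, beside 2.43% of all tested genes. These were Itgax itself, Cd24a, Flt3 (10 and 27 counts) and Dpp4 (8 and 22). Flt3 and Dpp4 reached 20 counts only in TKO, where they were higher, so the minimum partly sets this count. The 3 markers under the minimum were Zbtb46 (5 and 3 counts), Clec9a (1 and 4) and Siglech (4 and 6). Xcr1 did not pass, nor did Irf8, which had the most counts of the list (2529 and 2379, log2 ratio -0.023). The median of the 6, with Itgax included and under the same limit, was 1.33 on the log2 scale, and 0 of the 9 listed were at 0 counts. The part of such cells in the Itgax ratio was not tested.

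Calr, calreticulin, which binds C1q on dying cells, had 10919 and 13766 counts (log2 ratio 0.40, 0.36 to 0.44). Lrp1, an endocytic receptor that binds the calreticulin and C1q complex, had 34204 and 22993 counts. Its log2 ratio was -0.51 (-0.53 to -0.48), but 0.025 with the length trend removed, as its deposited length is 14907 bases. The call of Itgax did not depend on that trend, with a log2 ratio of 1.44 after its removal, nor did that of Serping1, at -1.33.

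**Figure D4:**
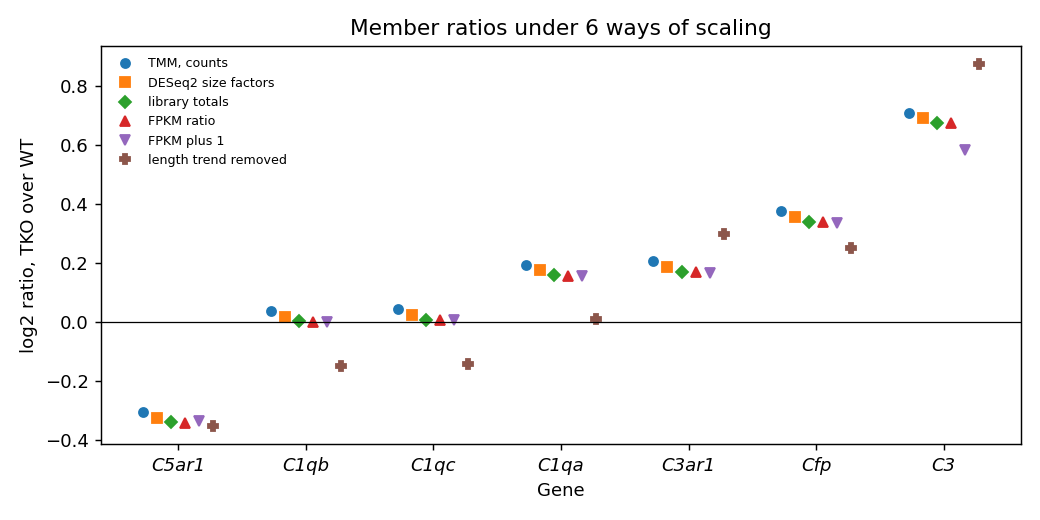
Log2 ratio of TKO over WT of each of the 7 genes under 6 ways of scaling, each drawn with its own symbol. C5ar1 stays below 0 and C3, Cfp and C3ar1 above 0 throughout, while C1qb and C1qc fall to -0.15 and -0.14 with the length trend removed.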

How the data were processed

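The deposited table held expected counts and FPKM for the 2 libraries and 0 unmatched columns of per-sample values. Bowtie2 2.2.5, HISAT2 2.0.4, RSEM 1.2.12 and mm10 are named, without roles, per the submitters' processing notes. Annotation, filters and strand setting were not given in the sources used here. Expected counts, as the authors deposited them, are estimated reads per gene. The authors' FPKM is listed at 0.01 for genes at 0. The deposited log2 ratio is that of the FPKM values. The deposited p-value comes from an unnamed test and was not used, and the deposited FDR, treated as a score because 713 values exceed 1, was not used.

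Expected counts, rounded to integers, were TMM-scaled (edgeR 4.0.16, R 4.3.3; factors 1.01 and 0.988). Ratios have exact conditional binomial intervals, ratios of ratios intervals from a normal approximation on the log scale, and FPKM exact Poisson intervals. The labels mention no molecular identifiers, so reads may repeat molecules, and intervals cover counting error only. The size rule was run on simulated counts with known changes in 200 genes. These held counting error only, so they say nothing of the spread between cultures. Alternatives were library totals, DESeq2 1.42.0 size factors, FPKM with pseudocounts of 0, 0.1 and 1, removal of the lowess length trend (span 0.3), other count minimums, thresholds and a wider interval. Coordinates and 3′ UTRs came from GENCODE M21 (GRCm38, the assembly of mm10).

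The members, lists and rules were chosen with earlier results of these data known. Named were the 7 members, the nearest gene to each by FPKM (predicted and unnamed genes left out), and in each complement list the genes past the size rule and the 4 with most counts. C1s1, C4a, C4b, C2, C5ar2, Vsig4, Ccr2, Pdgfra, dendritic cell markers and genes near the members were named beside them after their values were seen. Protein sequences were not analysed here. A gene that the rule takes is not reported here.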

Additional observations from a re-analysis of the deposited data

How the results depend on the processing

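No paired analysis was possible because each genotype has 1 library, and for the same reason no replicate could be left out. With the length trend removed, the log2 ratio was 0.0082 for C1qa, -0.15 for C1qb, -0.14 for C1qc, 0.297 for C3ar1 and 0.251 for Cfp, outside their counting intervals under TMM. With library totals it was 0.00097 for C1qb and 0.169 for C3ar1. With FPKM it was -0.00073 for C1qb, 0.0058 for C1qc and 0.167 for C3ar1, and pseudocounts of 1 and 0.1 gave -0.00073, 0.0058 and 0.167 again. C3 and C5ar1 stayed within their counting intervals under these 6 scalings, and no member was called except C3 at 1.5-fold (1 higher). Of the 18 complement genes, 2 were higher and 2 lower at 1.5-fold and 0 in either direction at 4-fold. The lower count was 0 with log2 of FPKM plus 1 and with at least 100 counts, and 2 when the minimum was dropped for genes detected in both libraries. The chain shares of C1q kept within counting error when counts over length replaced FPKM. Depth limits the genes near 20 counts, such as Cfb, and the spread between cultures is not measured.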
